A study of Mus musculus with 6 samples.

Results

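The genes of fatty acid synthesis and fatty acid oxidation were followed in B16-BL6, a mouse melanoma line of which polyadenylated RNA was sequenced. The members were taken by symbol from the deposited expression table, 39 of its 22535 gene rows, and all 39 symbols were found once. They were 12 genes of synthesis, elongation and desaturation, 18 genes of the carnitine shuttle and beta-oxidation, and 9 genes of activation, thioester hydrolysis, uptake, binding and control. The groups were cells with a control guide RNA (sgControl, n = 3 libraries) and cells with a guide against Ndufs4 (sgNDUFS4, n = 3 libraries), both B16-BL6 grown in the same serum- and pyruvate-supplemented medium. Ndufs4 encodes a subunit of complex I, the respiratory chain enzyme that reoxidises NADH. The stated purpose was to find expression changes that could underlie immunogenicity seen with the Ndufs4 guide. The labels do not say whether a group is 1 clone or a pool, nor whether replicates were separate cultures, so p-values reflect only how these libraries vary, and that variation may be technical. Other differences between the cell lines and the guide cannot be told apart.

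In fatty acid synthesis, citrate leaves the mitochondrion, is cleaved to acetyl-CoA in the cytosol, and is carboxylated to malonyl-CoA, from which fatty acid synthase builds palmitate. Elongases then lengthen the chain and desaturases place double bonds. In oxidation, acyl-CoA synthetases activate the fatty acid, the carnitine shuttle carries it into the mitochondrion, and rounds of dehydrogenation, hydration, dehydrogenation and thiolysis release acetyl-CoA. Each round yields NADH, which complex I reoxidises, and electrons that the electron transfer flavoprotein hands to ubiquinone without complex I. Malonyl-CoA, the building block of synthesis, inhibits the entry step of the carnitine shuttle. Peroxisomes run a parallel pathway for very long and branched chains.

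Reads counted in genes numbered from 20090607 to 25947374 per library, and 3 reads corresponded to between 0.116 and 0.149 CPM, the unit in which each gene's reads are scaled to one common library total. Ndufs4 was at 54.3, 55.05 and 52.4 CPM under sgControl against 14.99, 15.98 and 16.8 CPM under sgNDUFS4 (log2 fold change -1.73, SE 0.0764, limma adjusted p = 5.9e-16), so the targeted gene was lower in every library labelled sgNDUFS4. All 7 melanocyte lineage markers were read in every library, and their sum lay between 15409 and 15927 CPM in sgControl and between 14508 and 15533 CPM in sgNDUFS4. Within that sum Tyr fell from 32.3 to 3.10 CPM (log2 fold change -3.19), Mlana by 0.42 and Dct by 0.31, and Pmel rose by 0.34 (limma adjusted p = 5.3e-17, 2.3e-11, 1.2e-10 and 1.1e-10). Of the markers of other cells, 4 of 4 endothelial and 4 of 4 T cell genes had no read, and the 5 adipocyte genes summed to at most 0.308 CPM. The 5 macrophage genes summed to between 7.95 and 13.9 CPM in sgControl and between 5.09 and 13.9 CPM in sgNDUFS4, and of these Cd68 fell from 4.84 to 2.64 CPM (log2 fold change -0.81, limma adjusted p = 0.0082). The 5 fibroblast genes summed to between 41.8 and 44.1 CPM and between 41.4 and 46.1 CPM, with Dcn and Lum at 0. The part of such cells in the results was not tested. In these bulk samples a lower value can come from fewer cells that express a gene or from less RNA per cell, which cannot be told apart.

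Synthesis genes were more often lower than higher in sgNDUFS4, whereas oxidation genes were more often higher in the values as deposited. Of 12 synthesis members 11 had a mean of at least 1 CPM and were tested, and of these 6 were called lower and 2 higher, with 3 not called. That is 54.5% lower and 18.2% higher, beside 20.3% lower and 31.8% higher among the 11063 genes tested. Of 18 oxidation members 17 were tested, and 8 were called higher and 2 lower, or 47.1% and 11.8%. The median log2 fold change was -0.21 for the synthesis members and 0.10 for the oxidation members, beside 0.061 over all genes tested. Of the 9 remaining members 7 were tested, with 1 higher, 2 lower and a median of -0.026. A call is an adjusted p under 0.05 with limma on log2(CPM + 0.5), adjusted by Benjamini-Hochberg over all genes tested, and fold changes are sgNDUFS4 over sgControl on that scale, on which changes of low genes come out too small.

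The oxidation count depended on the scaling of the libraries. TMM scaling, which assumes that most genes do not differ, gave 5 oxidation members higher and 3 lower, or 29.4% and 17.6%, against a background of 24.9% higher and 25.8% lower. As deposited, 61.1% of all calls were higher, and after TMM scaling 49.2%. The share of oxidation members called higher after TMM scaling was thus near the background. Quantile normalization instead kept 8 oxidation members higher, with 3 lower, or 47.1% and 17.6%, against a background of 26.1% higher and 23.3% lower. For synthesis the count stayed at 6 lower and 2 higher of 11 after TMM scaling. Of the 35 tested members 22 had groups without overlap, or 62.9%, against 57.2% of all genes tested.

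**Figure D1:**
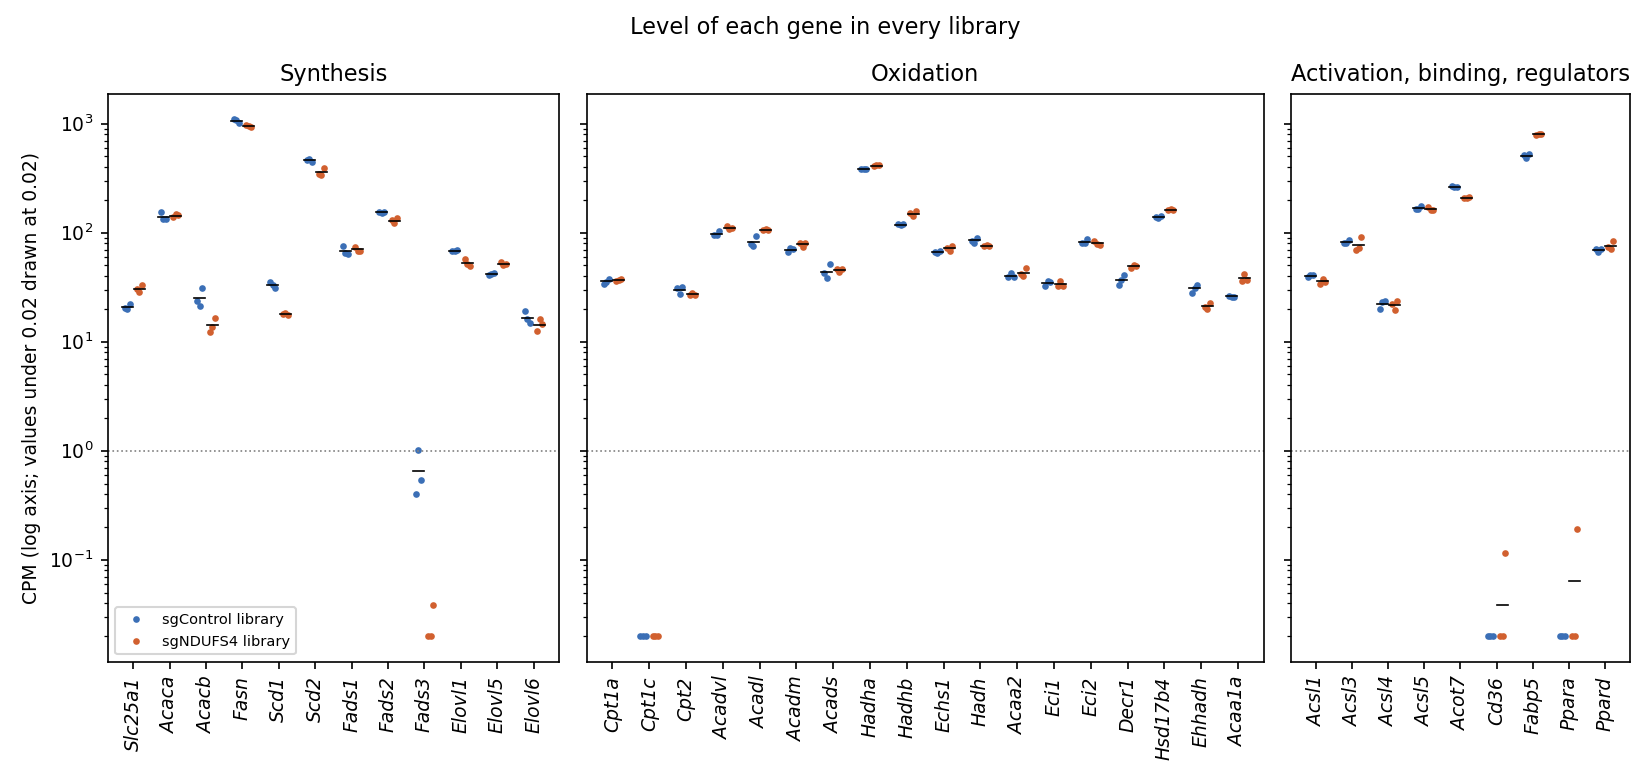
Level of each of the 39 members in CPM (log axis, values under 0.02 drawn at 0.02) in the 3 sgControl and 3 sgNDUFS4 libraries, with a short line at the group mean and a dotted line at 1 CPM. Scd1, Acacb and Ehhadh lie lower and Fabp5, Slc25a1 and Acaa1a higher in all 3 sgNDUFS4 libraries, and Cpt1c has no read in any library.

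Promoter sequences are printed for the contrasts among members on which the results turn. Fasn and Slc25a1 act in the same pathway and moved in opposite directions, Ehhadh fell while other peroxisomal genes rose, and Hadha and Hadhb are transcribed away from each other from neighbouring starts. The sequences are the 250 bases before the RefSeq start, 5′ to 3′ on the gene's strand, from RefSeq on GRCm38.p6, and 32 of the 39 members had such a window. Capitals mark matches, on either strand, to CCAAT (the box bound by NF-Y), CACGTG (an E-box) or TCACNCCAC (a form of the sterol regulatory element). The stretch between Hadha and Hadhb is the 85 bases between their GENCODE starts on the plus strand and has no capitals.
Fasn, chr11:120824548-120824797, minus strand: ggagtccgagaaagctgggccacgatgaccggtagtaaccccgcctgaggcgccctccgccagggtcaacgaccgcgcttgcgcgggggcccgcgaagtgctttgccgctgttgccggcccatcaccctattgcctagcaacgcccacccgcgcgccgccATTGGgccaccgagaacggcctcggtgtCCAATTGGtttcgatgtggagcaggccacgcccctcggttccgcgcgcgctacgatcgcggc
Slc25a1, chr16:17928220-17928469, minus strand: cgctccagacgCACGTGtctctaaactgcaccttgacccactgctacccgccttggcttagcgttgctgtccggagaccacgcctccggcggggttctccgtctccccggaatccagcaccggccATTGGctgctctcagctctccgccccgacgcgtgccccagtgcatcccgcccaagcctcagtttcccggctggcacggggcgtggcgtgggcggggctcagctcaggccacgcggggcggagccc
Ehhadh, chr16:21787835-21788084, minus strand: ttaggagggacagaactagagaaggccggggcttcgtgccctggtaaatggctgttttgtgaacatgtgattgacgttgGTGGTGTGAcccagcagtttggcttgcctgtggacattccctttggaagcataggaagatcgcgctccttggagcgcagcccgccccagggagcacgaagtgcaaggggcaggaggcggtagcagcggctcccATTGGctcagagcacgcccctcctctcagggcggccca
Hadha to Hadhb, chr5:30155163-30155247, plus strand: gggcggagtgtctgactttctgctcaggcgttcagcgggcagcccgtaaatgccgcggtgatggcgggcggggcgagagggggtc

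In these windows Fasn held 3 CCAAT matches, starting 90, 62 and 59 bases before its start, of which the last 2 overlap. Slc25a1 held 1 CCAAT match, at 125 bases, and 1 CACGTG match, at 239 bases. Ehhadh held 1 CCAAT match, at 38 bases, and 1 TCACNCCAC match, at 171 bases. The 32 members with a window had 34 windows in all, since some genes have several starts. Of these 34 windows 17 held CCAAT, against 33.8% of all 32851 windows, and 2 held TCACNCCAC (Acsl1 and Ehhadh), against 1.05%. The E-box stood in 2 of them, of Slc25a1 and Elovl5, against 6.02%. The direct repeat DR1, the usual element of PPAR receptors, was in no member's window and in 11 of all windows, or 0.0335%. At that rarity its absence from 34 windows cannot show whether these genes have such elements. These matches describe letters in the windows and are not measurements of binding.

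The entry into synthesis showed a rise at citrate export and no call for the cytosolic carboxylase. Slc25a1, the citrate carrier of the inner mitochondrial membrane (chromosome 16, 17925223 to 17928219), was at 20.3, 20.04 and 22.1 CPM under sgControl against 30.3, 28.4 and 32.95 CPM under sgNDUFS4. The groups did not overlap, and the mean rose from 20.8 ± 1.15 to 30.5 ± 2.29 CPM (SD, n = 3 each), a ratio of 1.47 (log2 fold change 0.54, SE 0.0846, limma adjusted p = 7.0e-06). Acaca, the cytosolic acetyl-CoA carboxylase (chromosome 11, 84129672 to 84401651), was at 154.1, 134.7 and 132.9 CPM under sgControl against 139.1, 147.0 and 144.3 CPM under sgNDUFS4. Its groups overlapped (log2 fold change 0.032, SE 0.0487, limma adjusted p = 0.61). The 50 tested genes nearest to Acaca had a median of 0.29, and after each gene was centred on those neighbours Acaca was at -0.17 and called lower (limma adjusted p = 0.0090).

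Acacb, the carboxylase at the outer mitochondrial membrane whose malonyl-CoA acts on the carnitine shuttle (chromosome 5, 114146535 to 114250761), was at 23.6, 21.3 and 31.02 CPM under sgControl against 12.2, 13.8 and 16.5 CPM under sgNDUFS4. Every sgNDUFS4 library lay below every sgControl library, and the mean fell from 25.3 ± 5.07 to 14.2 ± 2.16 CPM (SD, n = 3 each; log2 fold change -0.81, SE 0.120, limma adjusted p = 3.5e-06). Within each library the ratio of Acaca to Acacb, in CPM and therefore free of library scaling, lay between 4.28 and 6.52 in sgControl and between 8.75 and 11.4 in sgNDUFS4.

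Fasn, which builds palmitate (chromosome 11, 120805846 to 120824547), was the synthesis member with the most reads. It was at 1096, 1091 and 1014 CPM under sgControl against 965.9, 950.3 and 928.3 CPM under sgNDUFS4, and the mean fell from 1067 ± 46.2 to 948.1 ± 18.9 CPM (SD, n = 3 each; log2 fold change -0.17, SE 0.0299, limma adjusted p = 3.6e-05). The groups did not overlap, although the fall was small, to 0.889 of the sgControl mean. Quantile normalization ended this call, at -0.047 (limma adjusted p = 0.14), and regional centring gave -0.43 (limma adjusted p = 3.0e-11), with the neighbours' median at 0.18.

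Desaturases fell in 3 of 4 tested genes, and none rose, beside 20.3% lower and 31.8% higher among all genes tested. After TMM scaling 3 of 4 were again lower, beside 25.8% of all genes. Scd1, a stearoyl-CoA desaturase that makes oleate from stearate (chromosome 19, 44394455 to 44407879), was at 35.1, 32.9 and 31.4 CPM under sgControl against 17.97, 18.2 and 17.5 CPM under sgNDUFS4. It had the largest fall among the tested members, to 0.540 of the sgControl mean, from 33.1 ± 1.90 to 17.9 ± 0.317 CPM (SD, n = 3 each; log2 fold change -0.87, SE 0.0826, limma adjusted p = 2.2e-09). Scd2, the paralog that took most of the stearoyl-CoA desaturase reads (chromosome 19, 44293674 to 44306864), was at 463.9, 474.5 and 444.1 CPM under sgControl against 346.4, 341.2 and 390.2 CPM under sgNDUFS4. Its mean fell from 460.8 ± 15.4 to 359.3 ± 26.9 CPM (SD, n = 3 each; log2 fold change -0.36, SE 0.0401, limma adjusted p = 3.6e-08). Per kilobase of transcript, Scd2 stood at 84.5 CPM and Scd1 at 6.85 CPM in sgControl, and at 65.9 and 3.70 CPM in sgNDUFS4. The ratio of Scd2 to Scd1 in CPM was 13.2, 14.4 and 14.2 under sgControl against 19.3, 18.8 and 22.3 under sgNDUFS4, without overlap. Scd1 and Scd2 are close paralogs, and the sources used here do not say how shared reads were counted.

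The front-end desaturases of polyunsaturated chains lie side by side on chromosome 19 and differed among themselves. Fads2, the delta-6 desaturase (chromosome 19, 10062765 to 10101746), was at 155.0, 151.9 and 155.4 CPM under sgControl against 129.6, 121.4 and 135.4 CPM under sgNDUFS4. It fell in every sgNDUFS4 library, from 154.1 ± 1.92 to 128.8 ± 7.04 CPM (SD, n = 3 each; log2 fold change -0.26, SE 0.0438, limma adjusted p = 2.1e-05). Fads1, the delta-5 desaturase (chromosome 19, 10182888 to 10196877), was at 74.7, 64.6 and 64.1 CPM under sgControl against 74.3, 67.96 and 68.3 CPM under sgNDUFS4, and these groups overlapped (log2 fold change 0.052, SE 0.0606, limma adjusted p = 0.49). The ratio of Fads2 to Fads1 in CPM lay between 2.07 and 2.42 in sgControl and between 1.74 and 1.98 in sgNDUFS4. Fads3, a related gene beside them (chromosome 19, 10041569 to 10060110), was below the 1 CPM filter, with 8, 24 and 12 reads in sgControl and 0, 0 and 1 in sgNDUFS4. The ratio of its summed reads, scaled to depth, was 0.0198, with an exact 95% interval of 0.00049 to 0.12 that covers counting error only.

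Elongases went in different directions. Elovl1, which extends saturated very long chains (chromosome 4, 118428093 to 118432953), was at 67.5, 67.9 and 69.98 CPM under sgControl against 57.4, 51.6 and 49.8 CPM under sgNDUFS4 and fell without overlap (log2 fold change -0.37, SE 0.0593, limma adjusted p = 9.5e-06). An exon of Cdc20 on the other strand overlaps it by 53 bases, and the reads keep no strand. Elovl5, which extends polyunsaturated chains (chromosome 9, 77917364 to 77984519), was at 40.96, 42.1 and 43.01 CPM under sgControl against 54.1, 50.1 and 51.6 CPM under sgNDUFS4 and rose without overlap (log2 fold change 0.30, SE 0.0616, limma adjusted p = 2.1e-04). Elovl6, which extends palmitate (chromosome 3, 129532355 to 129638495), was at 19.01, 16.1 and 14.9 CPM under sgControl against 12.5, 16.02 and 14.6 CPM under sgNDUFS4. Its groups overlapped and it was not called (log2 fold change -0.21, SE 0.114, limma adjusted p = 0.14), while edgeR (adjusted p = 0.0495) and regional centring (limma adjusted p = 0.011) called it lower.

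Summed over the 12 synthesis members, the level was 2150.5, 2118 and 2023 CPM under sgControl against 1839.7, 1806 and 1849.5 CPM under sgNDUFS4. Fasn and Scd2 made up most of this sum. Without Fasn it lay between 1009 and 1055 CPM in sgControl and between 855.6 and 921.2 CPM in sgNDUFS4, lower in all 3 libraries.

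**Figure D2:**
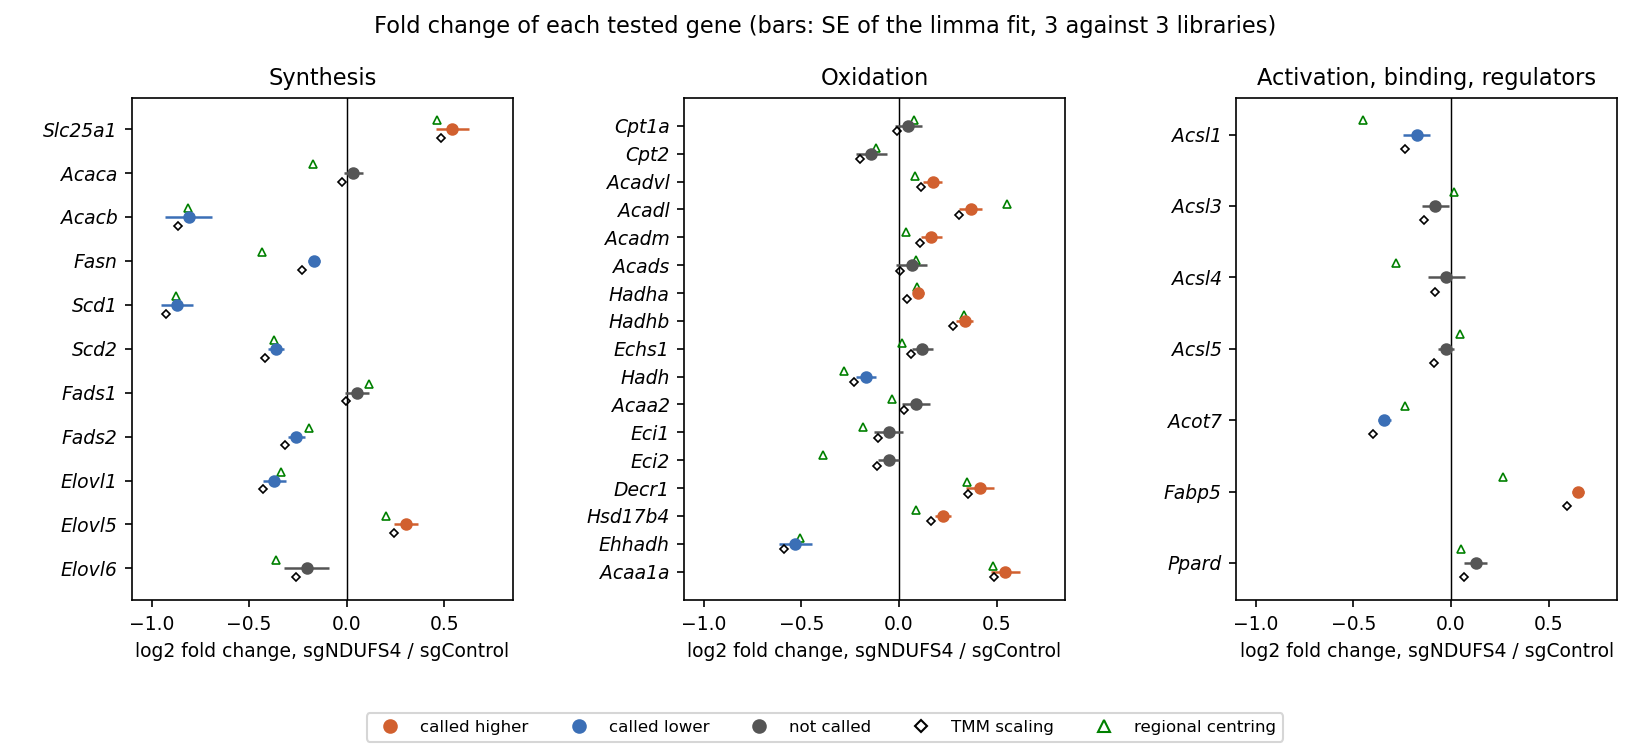
Log2 fold change of each tested member (x axis, sgNDUFS4 over sgControl on the log2(CPM + 0.5) scale, bars are the SE of the limma fit), with the value after TMM scaling (diamonds) and after regional centring (triangles). Scd1 at -0.87 and Acacb at -0.81 lie lowest and Fabp5 at 0.65 highest, and for Fabp5, Eci2, Acsl1 and Fasn the triangle lies apart from the point.

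The carnitine shuttle, by which long chains enter the mitochondrion, was not called in either tested gene. Cpt1a, the malonyl-CoA-sensitive entry enzyme (chromosome 19, 3322334 to 3385733), was at 33.8, 35.6 and 37.7 CPM under sgControl against 36.3, 36.9 and 37.5 CPM under sgNDUFS4. The groups overlapped (log2 fold change 0.049, SE 0.0694, limma adjusted p = 0.58). Cpt2, which regenerates acyl-CoA inside the mitochondrion (chromosome 4, 107903981 to 107923610), was at 30.96, 27.3 and 31.8 CPM under sgControl against 26.96, 27.8 and 26.6 CPM under sgNDUFS4 (log2 fold change -0.14, SE 0.0795, limma adjusted p = 0.14). Its groups overlapped, and TMM scaling, quantile normalization, edgeR, DESeq2 and the fit without sgControl replicate 2 called it lower, at values between -0.21 and -0.20. Cpt1c, the neuronal form, had no read in any of the 6 libraries, which allows at most 3 reads per library.

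Of the mitochondrial beta-oxidation genes, 6 of 12 were called higher and 1 lower, or 50% and 8.33%, beside 31.8% and 20.3% of all genes tested. After TMM scaling 3 of 12 were higher and 1 lower, and those 25% higher are near the 24.9% of all genes. Among the acyl-CoA dehydrogenases of the first step, Acadl, which acts on long chains (chromosome 1, 66830839 to 66863277), was at 78.99, 75.6 and 94.1 CPM under sgControl against 105.7, 108.1 and 105.9 CPM under sgNDUFS4. It rose without overlap, from 82.9 ± 9.85 to 106.6 ± 1.31 CPM (SD, n = 3 each; log2 fold change 0.37, SE 0.0594, limma adjusted p = 1.1e-05). Acadm, which acts on medium chains (chromosome 3, 153922357 to 153944632), was at 66.7, 71.9 and 70.7 CPM under sgControl against 80.8, 73.4 and 81.05 CPM under sgNDUFS4, and its lowest sgNDUFS4 library lay just above its highest sgControl library (log2 fold change 0.17, SE 0.0545, limma adjusted p = 0.013). The very long chain enzyme Acadvl was at 94.6, 95.5 and 104.6 CPM under sgControl against 114.8, 107.4 and 110.3 CPM under sgNDUFS4 (log2 fold change 0.17, SE 0.0487, limma adjusted p = 0.0041), and its exon overlaps Dvl2 on the other strand by 254 bases. Both calls ended after TMM scaling, with limma adjusted p = 0.10 for Acadm and 0.0521 for Acadvl, and after regional centring, with 0.64 and 0.25. Acadm was also lost without sgControl replicate 1, sgNDUFS4 replicate 1 or sgNDUFS4 replicate 3 (limma adjusted p = 0.068, 0.068 and 0.062). Acads, for short chains, was not called (log2 fold change 0.065, SE 0.0789, limma adjusted p = 0.51), and without sgControl replicate 3 it was called higher at 0.18 (limma adjusted p = 0.040).

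The trifunctional protein carries the later steps for long chains, and its subunits changed unequally. Hadhb, the thiolase subunit (chromosome 5, 30155248 to 30184593), was at 119.6, 116.3 and 118.9 CPM under sgControl against 150.9, 141.4 and 156.4 CPM under sgNDUFS4. It rose without overlap from 118.3 ± 1.69 to 149.6 ± 7.63 CPM (SD, n = 3 each; log2 fold change 0.34, SE 0.0440, limma adjusted p = 5.0e-07). Hadha, the hydratase and dehydrogenase subunit (chromosome 5, 30118304 to 30155162), was at 387.1, 383.1 and 385.8 CPM under sgControl against 408.8, 413.6 and 416.8 CPM under sgNDUFS4. The groups again did not overlap, but the ratio of the means was 1.07 (log2 fold change 0.10, SE 0.0303, limma adjusted p = 0.0075), and after TMM scaling Hadha was at 0.041 and not called (limma adjusted p = 0.28). The ratio of Hadha to Hadhb in CPM was 3.24, 3.29 and 3.25 under sgControl against 2.71, 2.93 and 2.66 under sgNDUFS4. These ratios did not overlap. The starts of this gene pair are separated by the 85 bases printed above in GENCODE, and lie 273 bases apart in RefSeq. An exon of Garem2 overlaps Hadha by 75 bases on the other strand, with a mean of 3.75 CPM for Garem2 in sgControl and 2.65 CPM in sgNDUFS4.

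For shorter chains the later steps are carried by separate enzymes. Hadh, the hydroxyacyl-CoA dehydrogenase (chromosome 3, 131233419 to 131272101), was the mitochondrial member called lower, at 84.5, 81.1 and 90.1 CPM under sgControl against 74.9, 77.04 and 74.9 CPM under sgNDUFS4 (log2 fold change -0.17, SE 0.0514, limma adjusted p = 0.0073). The groups did not overlap. The hydratase Echs1 was at 66.6 ± 1.36 and 72.4 ± 3.86 CPM (SD, n = 3 each) and not called, although its groups did not overlap (log2 fold change 0.12, SE 0.0542, limma adjusted p = 0.068), and without sgNDUFS4 replicate 2 it was called higher at 0.16 (limma adjusted p = 0.032). The thiolase Acaa2 was at 40.4 ± 2.20 and 42.99 ± 3.87 CPM (SD, n = 3 each; log2 fold change 0.086, SE 0.0714, limma adjusted p = 0.33), with overlapping groups.

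Unsaturated chains need auxiliary enzymes. Decr1, the dienoyl-CoA reductase that uses NADPH (chromosome 4, 15917240 to 15945507), was at 33.1, 36.8 and 40.9 CPM under sgControl against 47.4, 51.02 and 49.1 CPM under sgNDUFS4. It rose without overlap from 36.9 ± 3.90 to 49.2 ± 1.83 CPM (SD, n = 3 each; log2 fold change 0.41, SE 0.0723, limma adjusted p = 3.0e-05). The enoyl-CoA isomerases Eci1 and Eci2 were not called, at 34.7 ± 1.80 and 33.5 ± 2.28 CPM (SD, n = 3 each) and at 82.6 ± 4.60 and 79.6 ± 3.21 CPM (SD, n = 3 each; log2 fold changes -0.051 and -0.053, limma adjusted p = 0.59 and 0.42). The neighbours of Eci2 on chromosome 13, the chromosome of Ndufs4, had a median of 0.36, and after regional centring Eci2 was at -0.39 and called lower (limma adjusted p = 4.1e-06). Eci1 was at -0.18 after centring and called lower (limma adjusted p = 0.0498).

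The peroxisomal members moved in both directions, with 2 of 3 called higher and 1 lower, beside 31.8% and 20.3% of all genes tested. Ehhadh, the L-bifunctional enzyme that carries the middle steps (chromosome 16, 21761287 to 21787807), was at 28.2, 31.1 and 32.99 CPM under sgControl against 20.9, 19.9 and 22.6 CPM under sgNDUFS4. Every sgNDUFS4 library lay below the sgControl range, and the mean fell from 30.8 ± 2.40 to 21.1 ± 1.34 CPM (SD, n = 3 each; log2 fold change -0.53, SE 0.0852, limma adjusted p = 1.0e-05). Hsd17b4, the D-bifunctional enzyme for the same steps on branched and very long chains, was at 138.4, 136.6 and 143.2 CPM under sgControl against 161.3, 164.8 and 162.9 CPM under sgNDUFS4. It rose without overlap (log2 fold change 0.22, SE 0.0398, limma adjusted p = 3.7e-05), and after regional centring it was at 0.089 and not called (limma adjusted p = 0.11). The ratio of Hsd17b4 to Ehhadh in CPM lay between 4.34 and 4.90 in sgControl and between 7.21 and 8.26 in sgNDUFS4. Acaa1a, the peroxisomal thiolase (chromosome 9, 119339676 to 119350299), was at 26.4, 25.9 and 25.8 CPM under sgControl against 35.9, 41.8 and 37.2 CPM under sgNDUFS4. It rose without overlap from 26.02 ± 0.312 to 38.3 ± 3.12 CPM (SD, n = 3 each; log2 fold change 0.55, SE 0.0760, limma adjusted p = 1.3e-06). Its near-identical copy Acaa1b was at 0.349 CPM at most. How reads matching both genes were counted is not stated, so that value cannot show whether reads of Acaa1a were shared or dropped.

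Summed over the 18 oxidation members, the level was 1384, 1379 and 1458 CPM under sgControl against 1541, 1529 and 1560.5 CPM under sgNDUFS4, a ratio of the means of 1.10. Hadha, Hsd17b4 and Hadhb gave the largest shares of this sum.

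**Figure D3:**
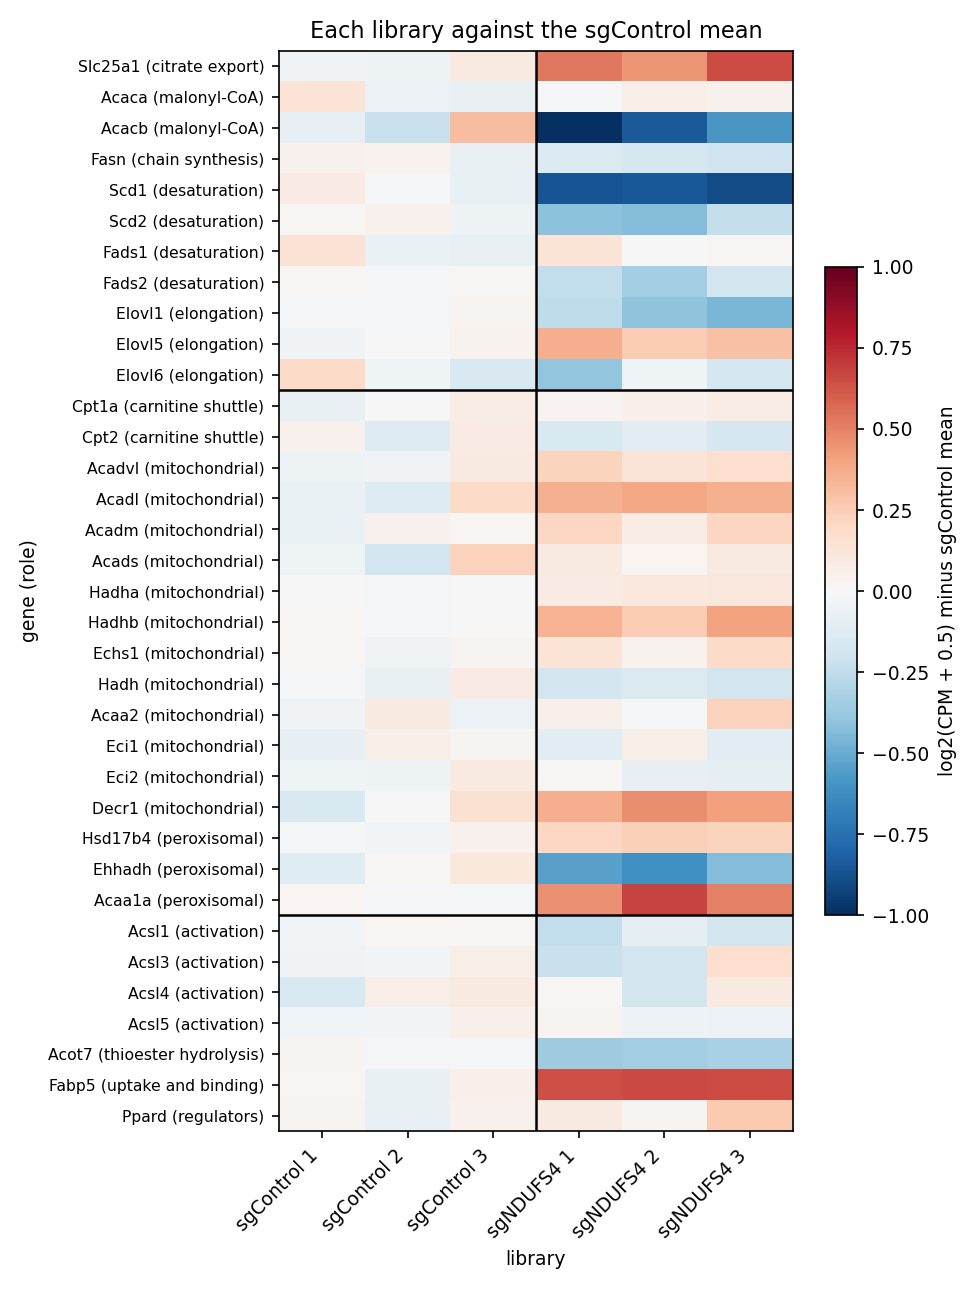
Difference of each library from the mean of the sgControl libraries on the log2(CPM + 0.5) scale (colour, from -1 to 1) for the 35 tested members, ordered by role, with lines between synthesis, oxidation and the remaining genes. The 3 sgNDUFS4 libraries share the sign for Scd1, Scd2, Acacb, Ehhadh and Acot7 (lower) and for Slc25a1, Fabp5, Acaa1a and Decr1 (higher), whereas Acsl3 and Elovl6 vary between libraries of a group.

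Fabp5, a cytosolic fatty acid-binding protein (chromosome 3, 10012548 to 10016607), had the largest rise among the tested members. It was at 514.7, 481.6 and 526.8 CPM under sgControl against 791.9, 801.0 and 799.2 CPM under sgNDUFS4. The groups lay far apart relative to their spread, and the mean rose from 507.7 ± 23.4 to 797.3 ± 4.80 CPM (SD, n = 3 each; log2 fold change 0.65, SE 0.0315, limma adjusted p = 3.5e-15). Per kilobase of transcript it was the most abundant member in both groups, at 514.4 CPM in sgControl and 807.8 CPM in sgNDUFS4. Its neighbours on chromosome 3 had a median of 0.38, and after regional centring it was at 0.27 and still called (limma adjusted p = 4.6e-06). GENCODE lists a processed pseudogene of it, Fabp5l2, so reads may be shared. Cd36, a membrane fatty acid translocase, had 0 reads in 5 libraries and 3 in the third sgNDUFS4 library, at the floor of 3 reads.

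Acyl-CoA synthetases, which activate fatty acids for both pathways, were called in 1 of 4 genes. That call was lower, or 25%, beside 20.3% lower and 31.8% higher among all genes tested. Acsl1 (chromosome 8, 46471037 to 46536051) was at 39.5, 40.8 and 40.6 CPM under sgControl against 33.9, 37.8 and 35.3 CPM under sgNDUFS4. Its groups did not overlap (log2 fold change -0.18, SE 0.0683, limma adjusted p = 0.033), but the call ended when 1 library was left out in 4 of 6 cases, those without sgControl replicate 2 or 3 or sgNDUFS4 replicate 1 or 3 (limma adjusted p from 0.066 to 0.14). The neighbours of Acsl1 had a median of 0.25, and after centring it was at -0.45 (limma adjusted p = 7.2e-06). Acsl4, which prefers arachidonate (chromosome X, 142317993 to 142390535), was at 19.8, 23.1 and 23.4 CPM under sgControl against 22.2, 19.4 and 23.5 CPM under sgNDUFS4, with overlapping groups (log2 fold change -0.025, SE 0.0952, limma adjusted p = 0.85). After centring Acsl4 was at -0.28 (limma adjusted p = 0.015), with its neighbours at 0.21. Acsl5 was at 168.1 ± 5.09 and 165.1 ± 5.18 CPM (SD, n = 3 each; log2 fold change -0.026, SE 0.0403, limma adjusted p = 0.61). Acsl3 was at 81.8 ± 2.82 and 77.9 ± 12.03 CPM (SD, n = 3 each; log2 fold change -0.080, SE 0.0696, limma adjusted p = 0.35). The third sgNDUFS4 library was the highest for Acsl3, and without sgNDUFS4 replicate 3 the gene was called lower at -0.20 (limma adjusted p = 0.0054).

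Acot7, a thioesterase that cleaves acyl-CoA back to free fatty acid (chromosome 4, 152178134 to 152271855), was at 269.3, 261.0 and 261.7 CPM under sgControl against 206.7, 207.8 and 210.5 CPM under sgNDUFS4. It fell without overlap from 264.0 ± 4.59 to 208.3 ± 1.97 CPM (SD, n = 3 each; log2 fold change -0.34, SE 0.0348, limma adjusted p = 8.3e-09). Of the receptors that control oxidation genes, Ppard was at 69.2 ± 3.00 and 75.8 ± 6.55 CPM (SD, n = 3 each) and not called (log2 fold change 0.13, SE 0.0590, limma adjusted p = 0.076), whereas it was called higher without sgNDUFS4 replicate 2, at 0.18 (limma adjusted p = 0.029). Ppara had no read in 5 libraries and 5 reads in the third sgNDUFS4 library.

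**Figure D4:**
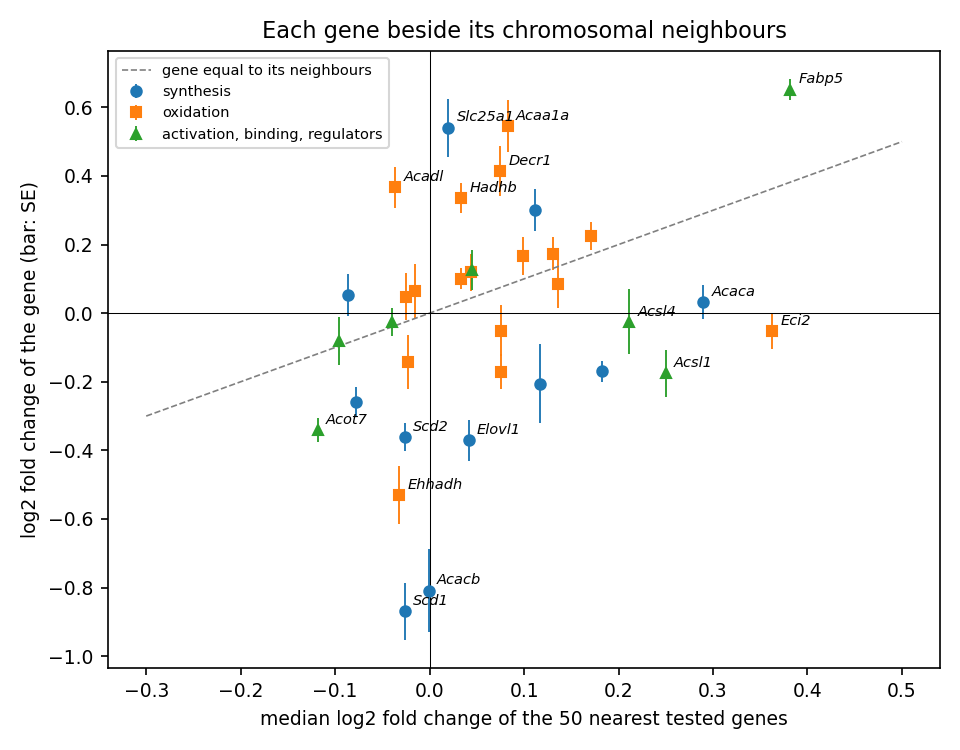
Log2 fold change of each tested member (y axis, bar is the SE) against the median log2 fold change of its 50 nearest tested genes on the chromosome (x axis), with a dashed line where both are equal. Fabp5, Eci2, Acaca, Acsl1 and Acsl4 have neighbours shifted by 0.21 to 0.38, while the neighbours of Scd1, Acacb, Ehhadh and Slc25a1 lie between -0.033 and 0.020.

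Regional centring was applied to 10910 of the tested genes, of which 22.4% were then called higher and 23% lower. Among synthesis members 8 of 11 were then lower and 2 higher, and among oxidation members 5 of 17 were higher and 4 lower. Fabp5, which had the largest rise, went from 0.65 to 0.27. Values of other members with changes of at least 0.5 moved less, with Scd1 at -0.87, Acacb at -0.82, Slc25a1 at 0.46, Acaa1a at 0.48 and Ehhadh at -0.51. Acadl moved further up, from 0.37 to 0.56, with its neighbours at a median of -0.036. Centring subtracts the mean of the neighbours, which can differ from their median.

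Other genes of synthesis and its control were also more often lower. Of 32 listed genes that are no members, 24 were tested, and 10 fell and 5 rose (41.7% and 20.8%, beside 20.3% and 31.8% of all genes tested). After TMM scaling 11 fell and 1 rose, or 45.8% and 4.17%, beside 25.8% and 24.9%. Me1, the malic enzyme that supplies cytosolic NADPH, fell from 117.7 ± 3.44 to 92.2 ± 1.51 CPM (SD, n = 3 each; log2 fold change -0.35, SE 0.0451, limma adjusted p = 3.9e-07). Acss2, which makes acetyl-CoA from acetate, and Mcat, the malonyltransferase of mitochondrial fatty acid synthesis, fell by 0.37 and 0.57 on the log2 scale (limma adjusted p = 0.0084 and 3.8e-05). Acss2 was not called without sgNDUFS4 replicate 1 (limma adjusted p = 0.079). Mid1ip1, an activator of acetyl-CoA carboxylase on chromosome X, fell by 0.90 among neighbours with a median of -0.74. Of the rises, the elongase gene Elovl7 on chromosome 13 was at 5.29 ± 0.520 and 10.5 ± 2.80 CPM (SD, n = 3 each), which is 0.90 on the log2 scale (limma adjusted p = 4.2e-05) with neighbours at 0.47.

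Of the 11 listed control genes of synthesis 8 were tested, and 5 fell and 2 rose as deposited, beside 20.3% and 31.8% of all genes tested. After TMM scaling 5 were called lower and 0 higher, beside 25.8% and 24.9% of all genes. After regional centring 3 were called lower and 0 higher, beside 23% and 22.4%. Srebf2, whose product mainly activates sterol genes, and Nr1h2, a liver X receptor, fell by 0.25 and 0.27 (limma adjusted p = 1.3e-06 and 3.5e-04), while after regional centring Srebf2 was at -0.0089 and not called (limma adjusted p = 0.87). Insig1 and Insig2, which hold SREBP proteins back in the endoplasmic reticulum, fell by 0.24 and 0.23 (limma adjusted p = 0.0460 and 0.032). Insig1 was not called without sgControl replicate 1 or 2 or sgNDUFS4 replicate 1 or 2 (limma adjusted p from 0.068 to 0.19), nor Insig2 without sgControl replicate 3 or sgNDUFS4 replicate 1 or 3 (limma adjusted p from 0.076 to 0.22). After regional centring Insig1 was at -0.24 and not called (limma adjusted p = 0.055), and Insig2 was at -0.25 and called (limma adjusted p = 0.021). Srebf2, Nr1h2, Insig1 and Insig2 were named after their values were seen. Srebf1, whose product activates fatty acid synthesis genes, and Scap, the escort of the SREBP proteins, rose by 0.16 and 0.14 (limma adjusted p = 0.0033 and 0.0069), while after regional centring they were at -0.0047 and -0.061. After TMM scaling neither was called (limma adjusted p = 0.058 and 0.12). Hacd1, a dehydratase of the elongation cycle, rose by 0.27 (limma adjusted p = 0.030) and was not called after TMM scaling (limma adjusted p = 0.087), nor without sgControl replicate 1 or 3 or any 1 of the sgNDUFS4 libraries (limma adjusted p from 0.0541 to 0.15).

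Other genes of oxidation rose in 13 of 27 tested, or 48.1%, and fell in 5, or 18.5%, beside 31.8% and 20.3% of all genes tested. After TMM scaling 12 rose and 5 fell, or 44.4% and 18.5%, beside 24.9% and 25.8%. The electron transfer flavoprotein route rose in all of its 3 genes. Etfdh, its ubiquinone oxidoreductase, rose from 61.3 ± 3.56 to 97.6 ± 6.60 CPM (SD, n = 3 each; log2 fold change 0.67, SE 0.0566, limma adjusted p = 2.8e-10), among chromosome 3 neighbours with a median of 0.30, and was at 0.32 after centring (limma adjusted p = 3.2e-05). Etfa and Etfb, the flavoprotein subunits, named after their values were seen, rose by 0.37 and 0.22 (limma adjusted p = 2.6e-08 and 6.9e-04). The sum of the 3 genes was 284.4, 296.9 and 312.5 CPM under sgControl against 382.9, 382.0 and 402.2 CPM under sgNDUFS4.

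Several peroxisomal genes rose as well. Phyh, which starts the alpha-oxidation of phytanate, rose from 11.1 ± 0.418 to 19.3 ± 1.06 CPM (SD, n = 3 each; log2 fold change 0.77, SE 0.104, limma adjusted p = 7.4e-07). Decr2, the peroxisomal dienoyl-CoA reductase, and Acox3, an acyl-CoA oxidase, rose by 0.59 and 0.51 (limma adjusted p = 6.0e-04 and 0.0019). The retinoid X receptors Rxra and Rxrb, partners of the PPAR proteins, fell by 0.39 and 0.27 (limma adjusted p = 1.5e-05 and 1.3e-04). In the same list Ppargc1a rose without overlap, from 30.1 ± 3.70 to 41.6 ± 3.90 CPM (SD, n = 3 each; log2 fold change 0.46, limma adjusted p = 5.6e-05). Ppargc1a was still called after TMM scaling, at 0.40, and after regional centring, at 0.41 (limma adjusted p = 2.3e-04 and 1.9e-04). Ppargc1b was not called (log2 fold change 0.023, limma adjusted p = 0.87). Both were named after their values were seen. Plin2, a lipid droplet coat protein, fell by 0.19 (limma adjusted p = 0.0032) but was at 0.033 after centring. Hacl1 stands in the table under 2 rows and was not counted.

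Among 15 tested genes of transport, activation and hydrolysis that are no members, 5 rose and 3 fell, or 33.3% and 20%, near the 31.8% and 20.3% of all genes tested. After TMM scaling 3 rose and 3 fell, or 20% and 20%, beside 24.9% and 25.8%. Acsbg1, an acyl-CoA synthetase of the bubblegum family, had the largest change among the tested genes of these pathways. It was at 26.6, 28.4 and 27.3 CPM under sgControl against 4.61, 2.59 and 4.01 CPM under sgNDUFS4, without overlap (log2 fold change -2.75, SE 0.147, limma adjusted p = 3.1e-14). Acss1, the mitochondrial acetyl-CoA synthetase, fell from 7.68 ± 1.56 to 4.35 ± 0.686 CPM (SD, n = 3 each; log2 fold change -0.75, limma adjusted p = 6.5e-04), and the thioesterase gene Acot1 by 0.32 (limma adjusted p = 0.028), a call lost without sgControl replicate 1, sgNDUFS4 replicate 1 or sgNDUFS4 replicate 2 (limma adjusted p = 0.16, 0.097 and 0.059), with no filter (limma adjusted p = 0.058), or after regional centring, at -0.18 (limma adjusted p = 0.22). Dbi, the acyl-CoA-binding protein, rose from 339.7 ± 8.50 to 426.7 ± 12.9 CPM (SD, n = 3 each; log2 fold change 0.33, SE 0.0331, limma adjusted p = 6.5e-09). Slc27a1, a fatty acid transport protein, rose from 9.55 ± 1.55 to 14.5 ± 0.653 CPM (SD, n = 3 each; log2 fold change 0.59, limma adjusted p = 2.7e-04). The thioesterase genes Acot8 and Acot9 rose by 0.24 and 0.18 as deposited (limma adjusted p = 0.0496 and 0.0097), and after regional centring Acot9 was at -0.052. Neither was called after TMM scaling (limma adjusted p = 0.14 and 0.076). In every fit that left out a library Acot8 was not called, and Acot9 was not called without sgControl replicate 2 (limma adjusted p = 0.0550; for Acot8 from 0.0509 to 0.22).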

How the data were processed

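Polyadenylated RNA of 3 sgControl and 3 sgNDUFS4 libraries was sequenced paired-end without strand, per the labels' protocols. The submitters' processing notes list HISAT2 and GRCm38. For counting tool, annotation and filters nothing is stated in these sources. Values are CPM as deposited, scaled by the authors to each library's reads in genes. Whole reads were recovered from the CPM steps, with 99.99% to 100% of values above 0 whole within 0.01 read. They gave the library totals, the read counts and floors, the Fads3 interval and some alternatives, but did not enter the main test. Of 22535 rows 9022 were at 0 in every library.

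Main test: limma 3.58.1 (R 4.3.3) on log2(CPM + 0.5), two-sided, with the variance allowed to follow the level, for the 11063 genes whose mean reached 1 CPM, adjusted over all of them (threshold 0.05). The method was tested on simulated data. On recovered reads edgeR 4.0.16 called 2723 genes higher and 2860 lower, and DESeq2 1.42.0 called 2603 and 2767. Regional centring subtracted, in each library, the mean of the 50 nearest tested genes (GENCODE M21, GRCm38). Levels per kilobase used the longest protein-coding GENCODE transcript. No library was a copy of another, with a chi-square of 3.53 to 5.29 per gene within groups. Intervals and read floors cover counting error only, since reads carry no molecular identifiers.

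Members and lists were chosen with earlier results of these data known. By the rule for named genes, every member may be named, values of every library are given for members fixed in a list and for called members changed by at least 0.5, and of the other pathway lists up to 4 rises and 4 falls with at least 5 CPM are named. A gene that this rule would name is not reported here. Alternatives were other pseudocounts (0.1 and 1), filters (none and 5 CPM), scalings, no trend, count tests, a replicate block, each library left out, and regional centring.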

Additional observations from a re-analysis of the deposited data

How the results depend on the processing

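The pseudocount and the filter on low values changed no call among members, apart from Fads3, which entered without a filter and was called lower. With every alternative the calls of 15 of the 21 called members kept their direction and side of the threshold, among them Scd1, Scd2, Acacb, Slc25a1, Ehhadh, Acaa1a and Fabp5. Oxidation members called higher numbered 5 after TMM scaling, with no trend, with edgeR, with DESeq2 and after regional centring, which gave 4 lower. They numbered 8 with quantile normalization, which gave 3 lower. With a library left out they ranged from 7 to 9. The synthesis median was -0.26 after TMM scaling, -0.27 with quantile normalization, edgeR and DESeq2, -0.34 after regional centring, and from -0.25 to -0.15 with a library left out. The oxidation median was 0.041 after TMM scaling, 0.040 with edgeR, 0.040 with DESeq2 and 0.085 with quantile normalization. Of the remaining members, 2 were called higher with the replicate block, through Ppard, and with a library left out 1 to 2 were higher and 1 to 2 lower.

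Signs changed as follows, and the cause was not tested. Acaca was at -0.027 after TMM scaling, -0.030 with edgeR, -0.030 with DESeq2 and -0.17 after regional centring. Fads1 was at -0.0063, -0.0077 and -0.0084 with TMM, edgeR and DESeq2. Cpt1a was at -0.0097 after TMM scaling, -0.0038 with quantile normalization, -0.013 with edgeR and -0.013 with DESeq2. Acads was at -0.0038 with edgeR and -0.0042 with DESeq2. After regional centring Acaa2 was at -0.038, Acsl3 at 0.015, Acsl5 at 0.045, Srebf1 at -0.0047, Scap at -0.061, Plin2 at 0.033 and Acot9 at -0.052. With a library left out, the values of Acaca lay between -0.0067 and 0.10, of Acads between -0.030 and 0.18 and of Acsl4 between -0.10 and 0.052.

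Whether replicate numbers pair the libraries cannot be decided from these values. Deviations of same-numbered libraries correlated only weakly, at 0.056, 0.012 and 0.097 over 11063 genes. Every library correlated best with its own number except sgNDUFS4 replicate 2, which was at 0.035 with sgControl replicate 1. The replicate block called 3632 genes higher and 2309 lower, against 3514 and 2241 without it, and among members it moved only Ppard, to an adjusted p of 0.045. Acot8 passed no longer with it (adjusted p = 0.0501). Depth limits Fads3, Cd36, Ppara and Cpt1c, where changes were not detectable or rest on few reads.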
